A study of Mus musculus with 40 samples.

Results

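The comparison described here is of whole mammary glands from virgin mice labelled Ezh2 knockout (KO) with those of virgin control mice, neither of them treated. It took every gene with at least 1 FPKM in either of the 2 groups, which were 13001 of the 22552 genes in the deposited table. FPKM are sequenced fragments scaled to transcript length and to the mapped fragments of a library. The Ezh2 KO mice carried floxed Ezh2 alleles (Ezh2f/f) together with an MMTV-Cre transgene, line A, and the control mice carried MMTV-Cre alone, so Cre was present in both groups. Both groups are labelled as an outbred background and as mature virgin females of 12 weeks, while the treatment protocol gives 10 to 12 weeks. Mice were anaesthetised with avertin at estrus, and the 4th mammary gland of the left side was taken once its lymph node had been cut out. Each group held 2 poly(A) RNA libraries, and the labels do not say whether these came from separate animals.

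The deposited values are 1 pooled FPKM per gene and group. No difference below therefore has a replicate check, none carries an SD or a p-value, and read depth is unknown. Differences are of log2(FPKM + 1), Ezh2 KO minus control, on which differences of low genes come out too small. Folds are plain FPKM ratios. A gene is counted as higher or lower where its difference is 1 log2 unit or more in size, which is a description and not a test. The closest values beside the limit of 1 FPKM were 1.0003 inside it and 0.99774 outside it. A second pair of virgin groups came from the same protocol, in which prolactin at 5 µg per g was injected after recovery and the gland of the right side was taken 2 h later, again with 2 libraries per group. Its values are set beside those of the untreated glands. It shares no library with them, but each right gland came from a mouse whose left gland had been removed.

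EZH2 is the catalytic subunit of Polycomb repressive complex 2 (PRC2), which methylates lysine 27 of histone H3 and keeps genes of other lineages and stages silent. EZH1 is its alternative catalytic subunit. In the virgin gland a branched tree of ducts lies in a pad of fat. An inner luminal layer of the ducts holds cells with estrogen and progesterone receptors, which signal to their neighbours, and other cells that can turn into milk-producing alveoli when prolactin activates the transcription factor STAT5. The MMTV promoter drives Cre mainly in the epithelium and is also known to act in some other tissues, so the fat, vessels and most immune cells of these whole glands need not carry the deletion.

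The targeted gene did not mark the groups. Ezh2 stood at 5.55 FPKM in Ezh2 KO glands and 4.98 in control glands, and after prolactin at 4.64 and 6.74. Ezh1 stood at 17.6 FPKM in Ezh2 KO and 14.7 in control. These are values of the whole gene in whole tissue, and the sources used here do not give the exons removed by Cre, so these values do not check the label, and Ezh2 KO means the group labelled so. Whether each virgin column carries the right group label was not tested either, and every virgin difference rests on these labels. Fat and duct markers were present in both groups, with Adipoq, the adiponectin gene, at 2733 FPKM in Ezh2 KO and 3207 in control and Krt18, a luminal keratin gene, at 219.8 and 428.9. The whole-table sum of FPKM was 581531 in Ezh2 KO and 618728 in control. Markers of other tissues moved between the groups and are given with the genes they touch, namely lymphocytes, blood, skeletal muscle, skin and liver.

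Of the 13001 genes, 478 were higher in Ezh2 KO glands by 1 log2 unit or more, 3.68% of those compared, and 130 were lower, 1.00%. The median difference was -0.004, 5% of genes lay below -0.467 and 5% above 0.813, and 86.15% lay within 0.5 of 0. Protein-coding genes gave 438 of the higher and 101 of the lower genes. Of all genes past the threshold, 49 were listed at 0 in 1 of the groups. The prolactin pair gave the opposite balance over 12788 genes, with 109 higher in Ezh2 KO (0.852%) and 387 lower (3.03%). Of the 478 genes higher in untreated Ezh2 KO glands, 47 were also higher after prolactin (9.83%, and 43.12% of the 109), while 246 were lower there (51.46%, and 63.57% of the 387). Of the 130 lower genes, 42 were lower after prolactin too (32.31%, and 10.85% of the 387) and 10 were higher. With the untreated and prolactin FPKM of each genotype averaged, 108 genes were higher and 114 lower, so the share of higher genes among those past the threshold was 48.65% in place of 78.62%.

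**Figure D1:**
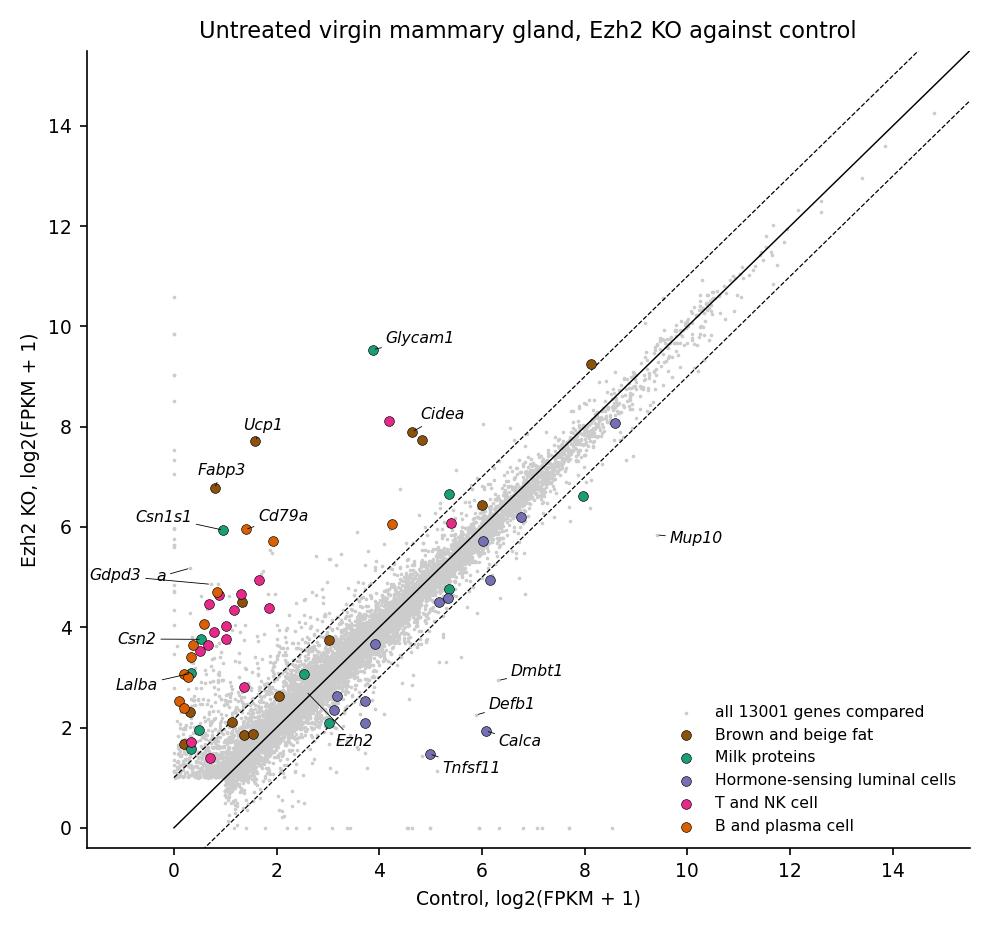
Each point is 1 of the 13001 genes, with log2(FPKM + 1) of untreated Ezh2 KO glands on the vertical axis and of untreated control glands on the horizontal axis. The solid line marks equal values, the dashed lines a difference of 1 log2 unit, and coloured points are members of 5 gene lists. Most lymphocyte genes and many brown fat and milk protein genes lie above the dashed band, and Calca and Tnfsf11 below it.

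Milk protein genes were among the largest differences toward Ezh2 KO. The list holds 15 genes. Of these, 11 reached 1 FPKM in either group, 7 were higher and 1 was lower, with a median difference of 1.30 (0.53 with all 15 included) beside -0.004 over all genes. Csn1s1, which encodes alpha-s1-casein, was at 60.4 FPKM in Ezh2 KO and 0.932 in control, a 64.8-fold ratio. Csn2, for beta-casein, was at 12.5 and 0.443 FPKM. Lalba, whose product alpha-lactalbumin is part of lactose synthase, was at 7.46 and 0.256 FPKM. Each of these 3 genes was under 1 FPKM in control glands and at several FPKM or more in Ezh2 KO glands. Csn1s2a, another casein gene, was at 2.86 and 0.403 FPKM. Csn3, for the kappa-casein that stabilises casein micelles, was the only casein gene well above 1 FPKM in both groups, at 99.96 in Ezh2 KO and 39.9 in control. Cel, a bile salt-stimulated lipase of milk, was at 1.97 and 0.264 FPKM. Expi, a secreted protease inhibitor gene of the epithelium, went the other way with 97.6 FPKM in Ezh2 KO and 248.8 in control. Wap, the whey acidic protein gene, stayed under 1 FPKM, at 0.174 in Ezh2 KO and listed at 0 in control, as did Csn1s2b, Lpo and Lao1.

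The same direction held in the prolactin pair for Csn1s1, Csn2 and Lalba, while Csn3 was not higher by 1 log2 unit there. Csn1s1 was at 121 FPKM in Ezh2 KO and 16.2 in control after prolactin, Csn2 at 79.4 and 19.2, and Lalba at 13.3 and 0.434. Lalba in untreated Ezh2 KO glands thus exceeded the value in control glands after prolactin, while Csn2 did not. At day 13 of pregnancy (p13), in other mice with 3 libraries a group, Csn1s1 stood at 14530 FPKM in Ezh2 KO and 1946 in control and Lalba at 99.5 and 5.53. At day 18 (p18) the order was the other way round, with Csn1s1 at 26620 and 47680 and Lalba at 717 and 2785.

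Glycam1 needs to be read apart. It encodes a mucin-like glycoprotein made both by the mammary epithelium and by the high endothelial venules of lymph nodes. It stood at 742.7 FPKM in untreated Ezh2 KO and 13.7 in control, but after prolactin at 2.10 and 864. Its level was high in the groups in which lymphocyte genes were high and low in the other virgin groups, and it stands in both lists. Without it, 6 of 10 compared milk protein genes were higher and 1 lower, with a median of 1.27 (0.38 without the limit of 1 FPKM), and after prolactin again 6 were higher and 1 lower.

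The promoters of the milk genes are shown because STAT5, which prolactin activates, binds the letters TTCNNNGAA, a palindrome read the same on both strands. Among the 9 compared milk protein genes with a promoter in the RefSeq table (GRCm38.p6, 250 bases before to 50 after the start), 4 hold these letters, namely Csn1s1, Csn2, Csn1s2a and Glycam1, against 8.466% (2288 of 27025) of all promoters of that length. Without Glycam1 it is 3 of 8. None of 6 milk fat globule and secretion genes with a promoter holds them, nor does any of 10 brown fat, 12 hormone-sensing and 11 luminal genes. Csn1s1, Csn2 and Csn1s2a passed the limit of 1 FPKM only through Ezh2 KO, and listed milk protein genes under it were not searched. The share among milk protein genes thus depends on the difference described and is no support for it. The match begins 100 bases before the start of Csn1s1, 93 before that of Csn2 and 145 before that of Glycam1, and in Csn1s2a 20 bases after it. The 250 bases before the start are given for Csn1s1 (chr5:87665958-87666207, plus strand), Csn2 (chr5:87699426-87699675, minus strand) and Lalba (chr15:98482684-98482933, minus strand), with the matching letters in capitals. Lalba is shown for contrast, since it has no match in this window. Its difference was 2.75 log2 units, beside 4.99 for Csn1s1 and 3.23 for Csn2. A match is a description of letters, and STAT5 binding was not analysed here.
Csn1s1: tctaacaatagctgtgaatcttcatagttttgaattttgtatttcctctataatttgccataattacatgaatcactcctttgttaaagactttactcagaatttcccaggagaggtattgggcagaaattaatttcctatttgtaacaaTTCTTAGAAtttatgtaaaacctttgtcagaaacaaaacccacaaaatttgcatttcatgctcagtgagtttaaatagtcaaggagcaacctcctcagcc
Csn2: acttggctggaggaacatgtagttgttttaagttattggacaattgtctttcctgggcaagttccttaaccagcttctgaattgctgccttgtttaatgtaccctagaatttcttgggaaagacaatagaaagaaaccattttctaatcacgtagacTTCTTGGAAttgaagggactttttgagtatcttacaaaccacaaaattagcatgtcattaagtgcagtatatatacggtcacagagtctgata
Lalba: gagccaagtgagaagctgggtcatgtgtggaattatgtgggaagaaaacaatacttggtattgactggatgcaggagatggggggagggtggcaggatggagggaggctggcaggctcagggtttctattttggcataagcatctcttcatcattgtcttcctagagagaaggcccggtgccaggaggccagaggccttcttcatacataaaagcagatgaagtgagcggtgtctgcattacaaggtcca

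Genes of the brown and beige fat programme, in which adipocytes burn fat for heat, were higher in Ezh2 KO glands. Of 14 compared members (15 listed), 8 were higher and none lower, all 14 differences were above 0, and the median was 1.30. Ucp1, the uncoupling protein that makes brown fat mitochondria produce heat, was at 210.0 FPKM in Ezh2 KO and 2.003 in control, a 105-fold ratio and the largest difference among protein-coding genes with at least 5 FPKM. Fabp3, a fatty acid carrier of oxidative tissue that is also made in the lactating gland, was at 109 and 0.734 FPKM. Cidea, a lipid droplet protein, was at 237.5 and 23.9 FPKM. Cpt1b, the muscle and brown fat form of the enzyme that admits fatty acids to mitochondria, was at 21.5 and 1.501 FPKM. The cytochrome c oxidase subunit genes Cox7a1 and Cox8b were at 211 and 609 FPKM in Ezh2 KO, against 27.6 and 279 in control. Skeletal muscle also expresses Fabp3, Cpt1b, Cox7a1 and Cox8b, and the 17 muscle genes listed summed to 93.2 FPKM in Ezh2 KO and 123.6 in control. Members that did not reach 1 log2 unit included Prdm16 and Ppargc1a, transcriptional regulators of the programme, at 2.65 and 2.58 FPKM in Ezh2 KO and 1.92 and 1.56 in control.

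After prolactin 10 of the 14 were higher and none lower, with a median of 1.46. The muscle genes there summed to 487.9 FPKM in Ezh2 KO and 324.5 in control, the same direction as the brown fat genes, and their part in this was not tested. Ucp1 stood there at 347 FPKM in Ezh2 KO and 67.8 in control, and at p13 at 65.5 and 0.499. As a ratio, though not in FPKM, the control value of Ucp1 thus differed more between the virgin pairs than the Ezh2 KO value did. White fat genes moved less. None of 18 white adipocyte genes reached 1 log2 unit and their median was -0.23, with Retn, the resistin gene, at 1849 FPKM in Ezh2 KO and 3252 in control. Among 24 genes of fatty acid and triglyceride synthesis 20 were below 0 and only Me1, the cytosolic malic enzyme that supplies NADPH, passed the threshold, at 160 FPKM in Ezh2 KO and 446 in control. Fasn, the fatty acid synthase gene, was at 347 and 617 FPKM. Neither list kept its direction after prolactin, where the white adipocyte median was 0.26 and the synthesis median 0.07. No member of either passed the threshold there. Of 21 genes of lipolysis and fatty acid oxidation, Cpt1b was higher and Acot1, a cytosolic thioesterase gene, was lower at 8.47 and 19.3 FPKM. Of 19 oxidative phosphorylation genes only Cox7a1 and Cox8b were higher, and the median was -0.004. The sources used here do not say how much brown fat lay in each pad, and in bulk tissue more cells of a type and more RNA per cell cannot be told apart.

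**Figure D2:**
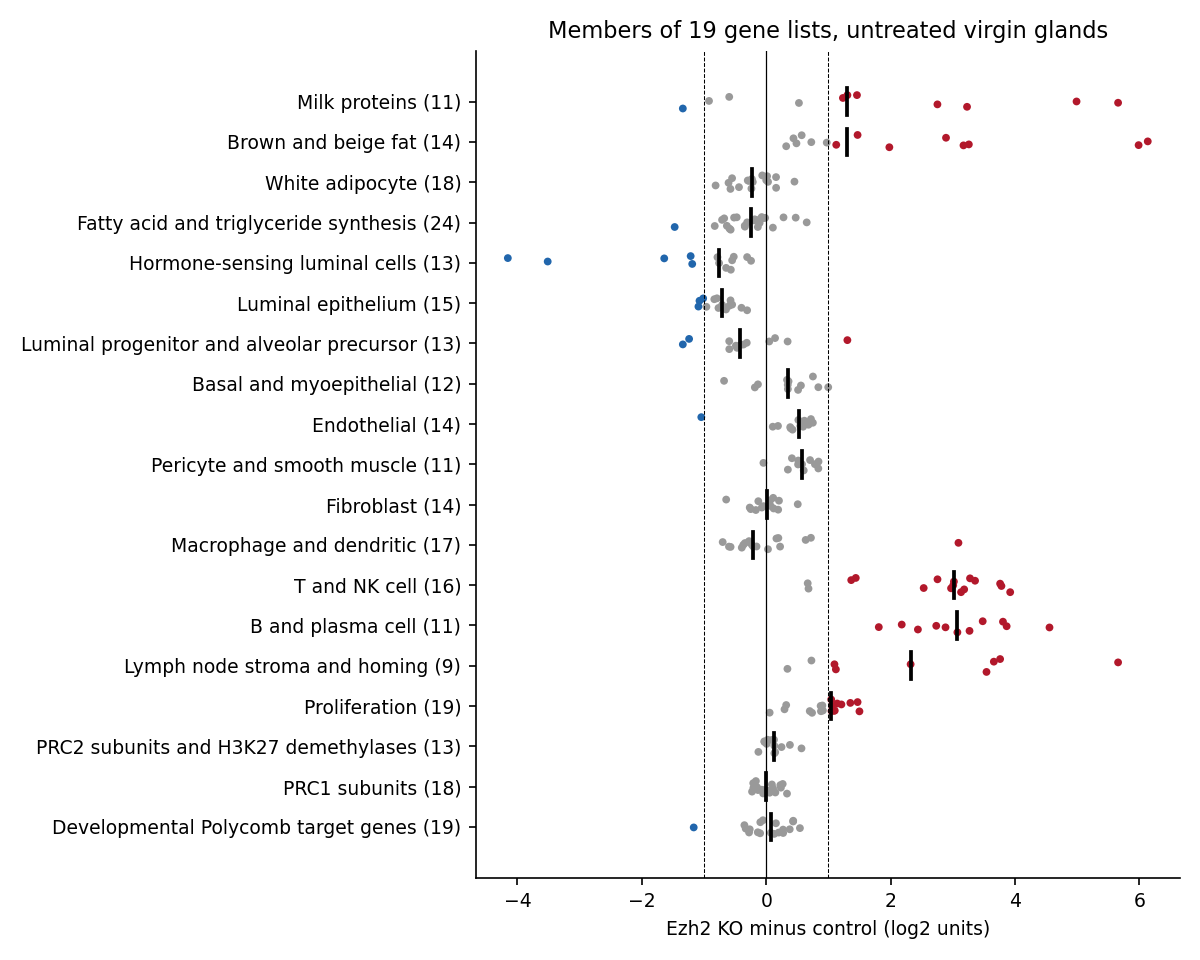
Each point is a member of 1 of 19 gene lists, placed by its difference of log2(FPKM + 1), Ezh2 KO minus control, in untreated virgin glands, with the number of compared members in parentheses. Red points are 1 log2 unit or more higher, blue points as much lower, grey points between, and the black bar is the list's median. Milk, brown fat, lymphocyte and proliferation genes extend to the right, and hormone-sensing and luminal genes to the left.

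Genes of hormone-sensing luminal cells were lower in Ezh2 KO glands. None of 13 compared members (15 listed) was above 0, 5 were lower by 1 log2 unit or more, and the median was -0.76. Calca, which encodes calcitonin and is induced by progesterone in the gland, was at 2.81 FPKM in Ezh2 KO and 66.8 in control, 23.8-fold lower in Ezh2 KO. Tnfsf11, the gene of RANKL, the main paracrine signal of progesterone, was at 1.77 and 30.7 FPKM. Wnt4, another progesterone-induced signal, was at 4.76 and 12.1 FPKM. The receptors themselves differed less than Calca and Tnfsf11. Pgr, the progesterone receptor gene, was at 3.25 FPKM in Ezh2 KO and 12.2 in control, and Prlr, the prolactin receptor gene, at 29.8 and 70.4. Esr1, the estrogen receptor gene, was at 11.7 and 14.01 FPKM and Areg, an EGF family ligand downstream of it, at 51.5 and 64.0. Tnfrsf11a, the receptor of RANKL, was at 2.08 and 0.961 FPKM.

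In the prolactin pair Calca and Tnfsf11 were again lower in Ezh2 KO, at 6.93 and 15.4 FPKM, against 135 and 71.0 in control. Pgr, Prlr and Wnt4 did not reach 1 log2 unit there, and the list's median was -0.40. At p13 Calca stood at 160 FPKM in Ezh2 KO and 111 in control, and at p18 at 101.5 and 11.9, so Ezh2 KO was then the higher group.

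General luminal genes had a median of -0.71. All 15 were below 0 in Ezh2 KO, and 3 of them were lower by 1 log2 unit or more, namely Krt8, Cd24a and Cldn4. The luminal keratin genes Krt8, Krt18 and Krt19 were at 152, 219.8 and 286 FPKM in Ezh2 KO, against 322, 428.9 and 512 in control. Epcam, an adhesion molecule of epithelial cells, was at 67.1 and 110.7 FPKM. After prolactin the median was -0.61 and none passed the threshold. Basal and myoepithelial genes did not share this. None of 12 passed the threshold, 9 were above 0, and the median was 0.35. Krt5, a basal keratin gene, was at 24.6 FPKM in Ezh2 KO and 14.2 in control, and Krt14 at 17.4 and 19.8. Of 13 luminal progenitor and alveolar precursor genes, Csn3 was higher, Expi and Rspo1 were lower, and the median was -0.42. Elf5, the transcription factor of alveolar fate, was at 16.3 and 25.1 FPKM, and Kit, a receptor of progenitors, at 16.3 and 21.2. Casein genes and Lalba were thus higher in the group in which all 15 luminal genes lay below 0. Of 16 genes of prolactin and STAT5 signalling, Tnfsf11, Prlr and Wnt4 were lower and none was higher. Stat5a was at 21.1 and 33.9 FPKM, and Cish, a STAT5 target that feeds back on the receptor, at 11.0 and 6.64.

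**Figure D3:**
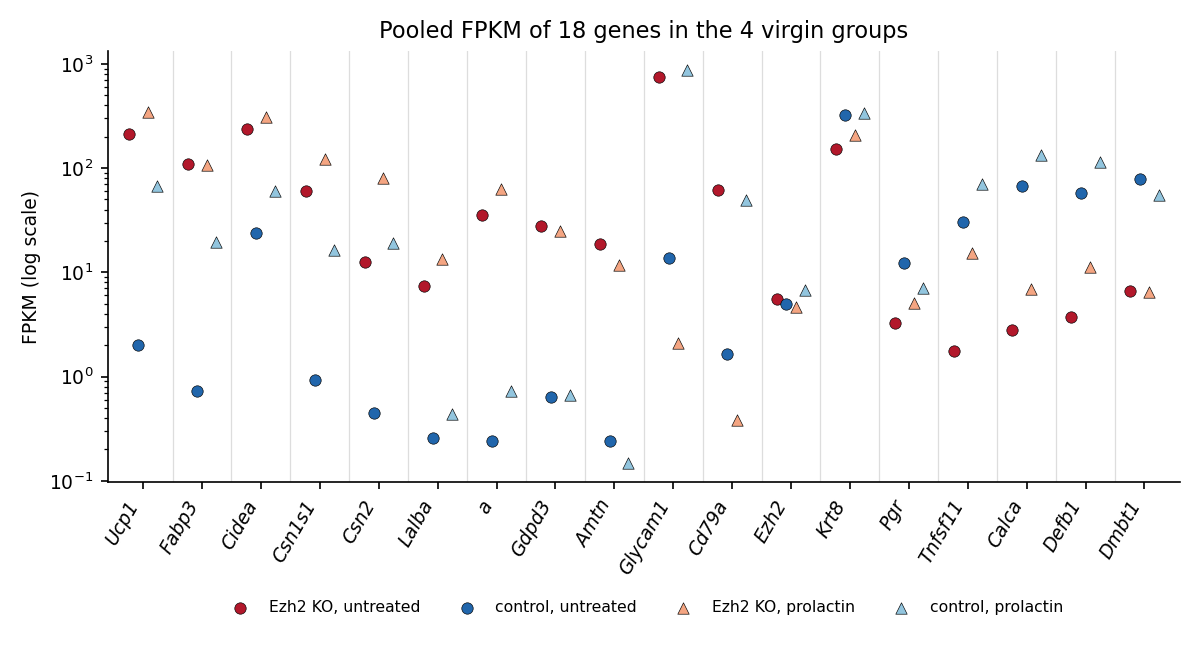
Pooled FPKM of 18 genes on a log axis in the 4 virgin groups, with circles for untreated and triangles for prolactin-treated glands, Ezh2 KO in red shades and control in blue. From Ucp1 to Amtn Ezh2 KO lies above control in each pair, and from Krt8 to Dmbt1 it lies below control in each pair. Glycam1, Cd79a and Ezh2 change sides between the pairs.

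Several of the largest differences toward control were of genes outside these lists. Dmbt1, a secreted scavenger glycoprotein of mucosal surfaces, was at 6.67 FPKM in Ezh2 KO and 78.8 in control, and after prolactin at 6.47 and 55.7. Defb1, an antimicrobial beta-defensin, was at 3.75 and 58.1 FPKM, and after prolactin at 11.4 and 114. Abp1, the diamine oxidase gene now named Aoc1, was at 1.185 and 33.7 FPKM, and after prolactin at 0.698 and 7.63. In each of these 3 genes both Ezh2 KO values lay below both control values. Mup10, a major urinary protein, was at 56.4 and 679 FPKM, a value that is uncertain because its family has near-identical copies. Slc5a5, the sodium iodide symporter that brings iodide into milk, was at 8.89 FPKM in Ezh2 KO and 38.6 in control. Aqp5, a water channel of secretory epithelium, was at 40.5 and 99.9 FPKM. Ido1, a tryptophan-degrading enzyme, was at 23.0 and 81.1 FPKM, and Cyp1a1, a xenobiotic-metabolising enzyme, at 1.28 and 7.27. Cxcl15, a chemokine of mucosal epithelium in mice, was at 9.66 and 46.9 FPKM, and Wfdc2, a secreted protein of glandular epithelium, at 68.9 and 208. Sprr1a, a cornified envelope gene of squamous cells, was at 1.28 and 12.6 FPKM. Of 4 compared skin genes, Sprr1a and Krtdap were lower, while Krt10, a keratin of upper skin layers, was at 0.925 and 1.22 FPKM and its partner Krt1 was under 1 FPKM in both groups. The remaining genes among the 15 largest lower differences were Cyp3a57, Mmd2, Akr1cl, Ctsj and Dpep2, with ratios of control to Ezh2 KO between 4.68 and 6.81.

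Among protein-coding genes with at least 5 FPKM in either untreated group, 249 were higher and 81 lower in untreated Ezh2 KO glands. Of these, 28 were higher and 24 lower in the prolactin pair too. Over all genes compared in the prolactin pair, 0.852% were higher and 3.03% lower. Each right gland came from a mouse whose left gland had been removed, so the pairs are not independent. The 28 higher genes include 3 milk protein genes (Csn1s1, Csn2 and Lalba) and 6 brown fat genes. Ranked by the smaller of their 2 differences, the first was a, the agouti gene, whose product acts as an antagonist of melanocortin receptors. It was at 35.2 FPKM in Ezh2 KO and 0.242 in control, a 146-fold ratio, and after prolactin at 62.4 and 0.724. At p13 it was at 352.9 and 209.3 FPKM and at p18 at 441 and 857. Gdpd3, a glycerophosphodiester phosphodiesterase gene, was at 27.98 and 0.640 FPKM, and after prolactin at 25.1 and 0.664. Amtn, the amelotin gene known from tooth enamel, was at 18.6 and 0.242 FPKM, and after prolactin at 11.7 and 0.149. Gchfr, the feedback regulator of GTP cyclohydrolase, was at 11.3 and 0.767 FPKM. In each of these 4 genes the 2 Ezh2 KO values were at least 10 times the control values. Smaller differences in both pairs included Ptn, the growth factor pleiotrophin, at 17.9 FPKM in Ezh2 KO and 4.78 in control, Ldhb, a lactate dehydrogenase subunit gene, at 159 and 79.2, and Icam1, an adhesion molecule for leukocytes, at 15.2 and 5.38. At p13, 11 of the 28 were higher by 1 log2 unit or more and 1 was lower, and at p18 7 were higher and 5 lower. Of the 24 lower genes, 3 were lower and 3 higher at p13, and none was lower and 6 were higher at p18. The share of all genes past the threshold at p13 and p18 was not computed, so these counts cannot be read as recurrence.

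**Figure D4:**
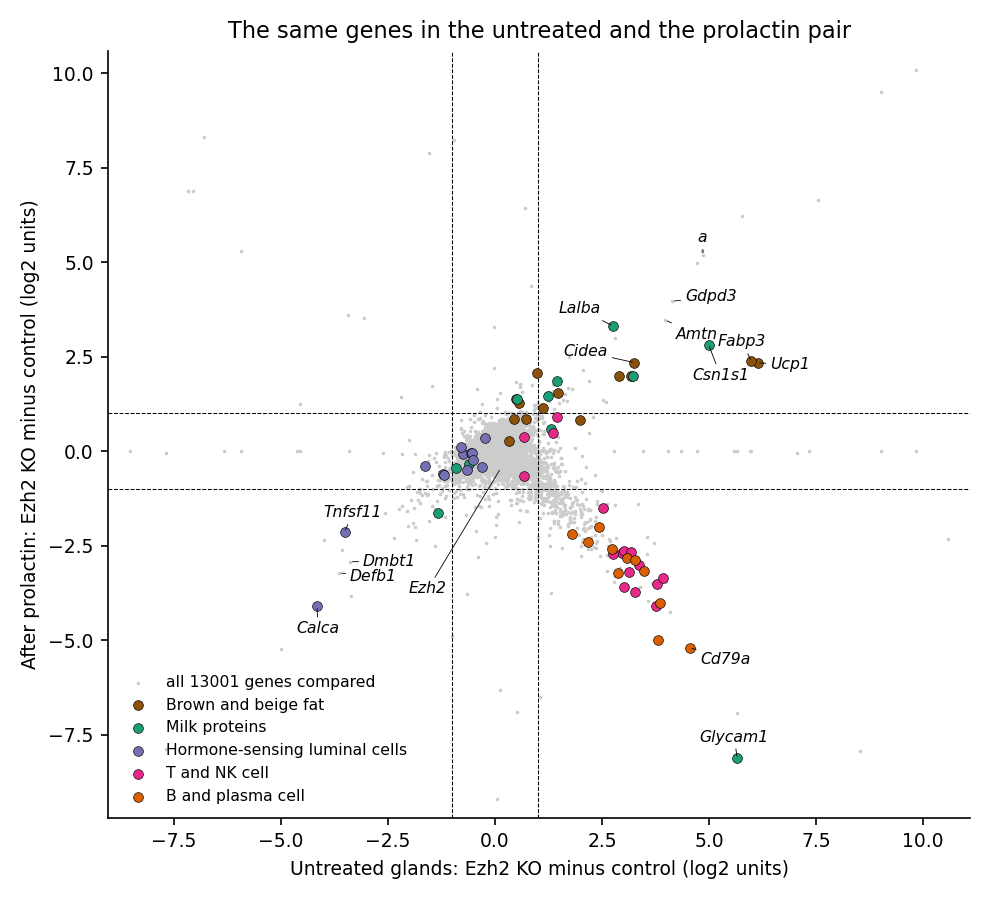
Each point is 1 of the 13001 genes, placed by the difference of log2(FPKM + 1), Ezh2 KO minus control, in untreated glands (horizontal) and in glands after prolactin (vertical). Dashed lines mark 1 log2 unit. Csn1s1, Lalba and most brown fat genes lie at the upper right, Calca and Tnfsf11 at the lower left, and T and B cell genes at the lower right, where the pairs go opposite ways.

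Lymphocyte genes pointed opposite ways in the virgin pairs. Of 16 T and NK cell genes 14 were higher in untreated Ezh2 KO glands and none lower (median 3.01), and after prolactin 12 were lower in Ezh2 KO and none higher (median -2.70). All 11 compared B and plasma cell genes were higher in the untreated pair (median 3.07) and lower in the prolactin pair (median -2.88). Cd79a, part of the B cell receptor, was at 60.9 FPKM in Ezh2 KO and 1.63 in control, and after prolactin at 0.383 and 49.7. Cd3g, part of the T cell receptor complex, was at 29.7 and 2.17 FPKM, and after prolactin at 0.779 and 22.4. Ccr7, the receptor that brings lymphocytes to lymph nodes, was at 23.9 and 0.838 FPKM, and after prolactin at 0.292 and 21.0. Cxcl13, a chemokine of B cell follicles, was at 58.3 and 10.9 FPKM, and after prolactin at 10.3 and 64.2. High values thus sat in untreated Ezh2 KO and in prolactin-treated control glands, for 7 of 9 compared lymph node genes in the untreated pair and 6 in the other, or 6 and 5 of 8 without Glycam1. The median of the lymph node list in the untreated pair was 2.32, and 1.12 with all its members in the table included. Summed over members, T and NK cell genes gave 555 FPKM in untreated Ezh2 KO, 73.8 in untreated control, 51.7 in Ezh2 KO after prolactin and 322 in control after prolactin. The protocol states that the lymph node was cut out. What was left of it in each pad, and whether the virgin columns are labelled correctly, was not tested. Of the 246 genes that were higher untreated and lower after prolactin, 28 are in the 3 lymphoid lists. These lists hold only 16, 11 and 9 compared genes, so most of the 246 could not be members. Without the members of the 3 lymphoid lists, 447 genes were higher and 130 lower in untreated Ezh2 KO glands. Lymphocyte genes outside the lists, such as Faim3, remain in that count, so it does not show how many of the higher genes are lymphoid.

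Proliferation genes were higher in untreated Ezh2 KO glands as well. In that pair 10 of 19 were higher in Ezh2 KO and none lower. The median was 1.04, or 0.98 with all 20 listed genes and 0.88 with a minimum of 5 FPKM. In the prolactin pair none passed the threshold (median -0.46). Top2a, a DNA topoisomerase of dividing cells, was at 4.51 FPKM in Ezh2 KO and 0.989 in control, and after prolactin at 1.24 and 2.27. Mki67, which encodes the Ki-67 antigen, was at 1.86 and 0.527 FPKM. Other immune markers were mixed. Of 17 macrophage and dendritic cell genes only Marco, a scavenger receptor, passed the threshold, at 11.9 FPKM in Ezh2 KO and 0.511 in control, and after prolactin at 0.427 and 8.32. Of 14 genes of antigen presentation all were above 0 (median 0.47), with Ciita, the activator of MHC class II genes, higher at 4.51 and 1.04 FPKM. After prolactin 5 of these 14 were lower in Ezh2 KO and none higher (median -0.51). Of 18 interferon response genes only Iigp1, an interferon-induced GTPase, passed, at 31.9 FPKM in Ezh2 KO and 72.4 in control. After prolactin 6 of the 18 were lower in Ezh2 KO and none higher (median -0.67). Mast cell genes had none of 7 past the threshold. S100a9, Saa3 and Camp were the 3 higher of 12 neutrophil and acute phase genes, S100a9 at 10.3 and 3.46 FPKM.

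Most markers of vessels, blood and muscle differed by less than 1 log2 unit, though the erythroid median was further from 0 than the luminal median of -0.71. Of 14 endothelial genes 13 were above 0 (median 0.53), with Pecam1 at 89.0 FPKM in Ezh2 KO and 52.5 in control, while Lyve1, a lymphatic vessel marker, was lower at 12.5 and 26.9. None of 11 pericyte and smooth muscle genes passed the threshold, and their median was 0.57. The 5 compared erythroid genes were all below 0 (median -0.82, and -0.43 with all members in the table) and none passed the threshold, with Hba-a1, an alpha-globin gene, at 325.7 and 536.5 FPKM. Of 11 skeletal muscle genes 3 were lower (median -0.57, with all 17 listed members near 0), with Ckm, the muscle creatine kinase gene, at 2.40 and 8.13 FPKM. A list of liver and salivary secretory genes was mixed. Of 8 compared members 5, all of them liver genes, were higher in untreated Ezh2 KO glands, with Apoa2, an apolipoprotein gene, at 40.3 FPKM in Ezh2 KO and 7.22 in control and Fabp1, a liver fatty acid carrier, at 25.1 and 5.44, while Alb, the albumin gene, was at 43.4 and 41.5 and Amy1, a salivary amylase gene, at 273 and 391. The median of the 8 was 1.74, and 0.06 with all members in the table included. After prolactin none of them passed the threshold, Apoa2 being at 2.36 and 4.16 FPKM.

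Polycomb genes and their listed targets rarely passed the threshold, which 3.68% of all genes compared passed as higher and 1.00% as lower. At such shares, lists of this size hold few such genes, so the counts below do not set these genes apart. None of 13 PRC2 subunit and H3K27 demethylase genes passed the threshold (median 0.13), with Suz12 at 16.85 FPKM in Ezh2 KO and 16.55 in control and Eed at 13.7 and 12.5. None of 18 PRC1 genes passed it, nor did any of the 6 compared cyclin-dependent kinase inhibitor genes. Cdkn2a, a cell cycle inhibitor gene known as a Polycomb target, was under the limit of 1 FPKM in both groups, at 0.929 in Ezh2 KO and 0.141 in control. Of 38 developmental transcription factor genes listed as Polycomb targets, 19 were under 1 FPKM in both groups and 6 of these were listed at 0 in both. Of the 19 compared, none was higher and 1 was lower, Msx2, a homeobox gene, at 4.53 FPKM in Ezh2 KO and 11.4 in control. The Hox genes compared lay between -0.33 for Hoxc10 and 0.54 for Hoxd10.

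**Figure D5:**
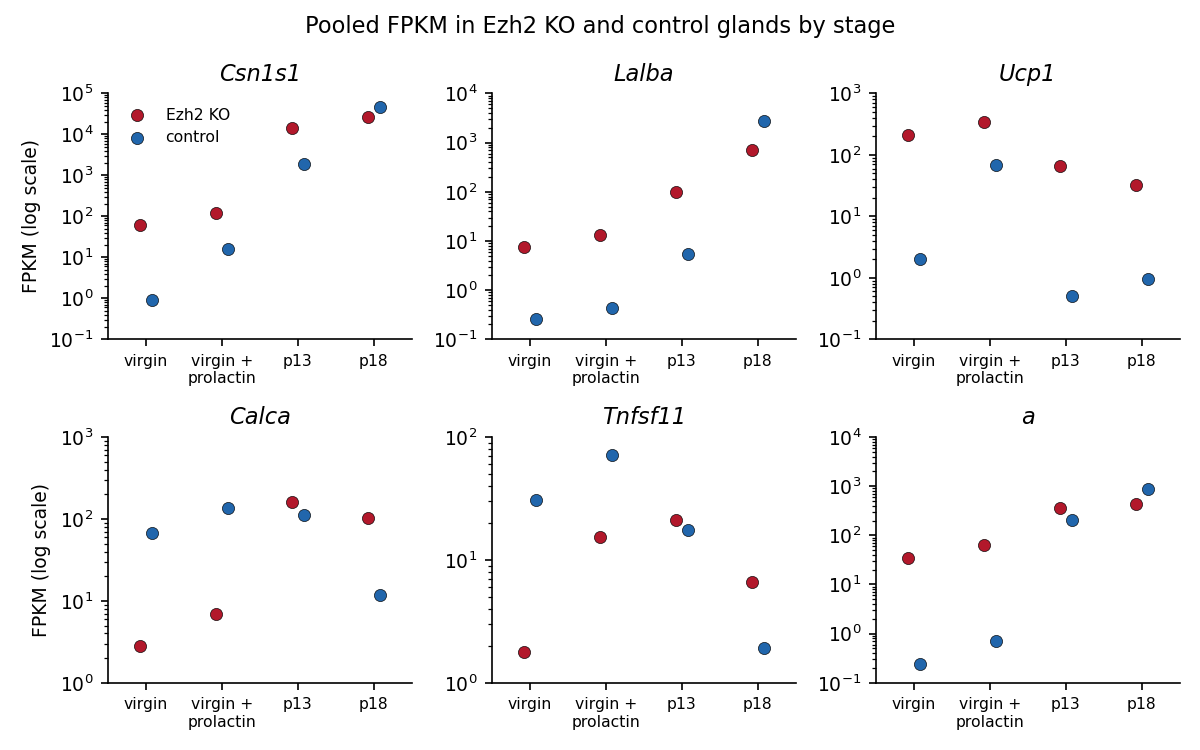
Pooled FPKM of 6 genes on log axes in Ezh2 KO (red) and control (blue) glands of virgin mice, of virgin mice after prolactin and of mice at p13 and p18. For Csn1s1 and Lalba Ezh2 KO lies above control up to p13 and below it at p18, for Ucp1 it lies above control in all 4, and for Calca and Tnfsf11 it lies below control in both virgin pairs and above it at p13 and p18.

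In 12 further lists no member reached 1 log2 unit in untreated glands. These were 18 cholesterol synthesis genes, 14 fibroblast genes, 16 collagen and matrix genes, 14 matrix metalloproteinase and TIMP genes, 14 glucocorticoid-induced genes, 18 heat shock and unfolded protein genes, 15 clock genes, 8 EGF family genes, 13 IGF axis genes, 15 glucose and insulin genes, 16 ribosomal protein genes and 14 ubiquitously expressed genes. The medians of these 12 lists lay between -0.15 and 0.18. Over all genes compared 3.68% were higher and 1.00% lower, so lists this small do not stand apart by having none. In the WNT list 2 of 18 were higher and 2 lower. Wnt4 and Rspo1, an enhancer of WNT signalling, were lower, Rspo1 at 1.17 FPKM in Ezh2 KO and 4.12 in control. Tcf7 and Lef1, transcription factors of the pathway that are also T cell genes, were higher at 24.3 and 3.20 FPKM in Ezh2 KO, against 1.47 and 0.0798 in control, and changed sides after prolactin. Among 19 immediate early genes Fos was lower, at 11.8 and 25.9 FPKM, and Egr3 higher, at 2.37 and 0.421. Of 9 Schwann cell and nerve genes S100b was higher, at 13.4 FPKM in Ezh2 KO and 5.67 in control, and again after prolactin, at 14.7 and 5.57. In the milk fat globule and secretion list 3 of 11 were higher, Fabp3, Cidea and Btn1a1, and Aqp5 was lower (median 0.09). Btn1a1, which encodes the butyrophilin of the milk fat globule membrane, was at 12.5 FPKM in Ezh2 KO and 5.17 in control, and was higher again after prolactin at 16.1 and 7.23.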

How the data were processed

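RNA was measured as FPKM in 31 mouse mammary gland libraries of 12 groups, and 9 chromatin samples were not analysed here. The deposited table gives 1 FPKM per gene and group, made by the authors from their reads, and the way in which they combined libraries is not stated. Build mm9 and the tools Cuffdiff, Cufflinks, TopHat, Bowtie, BWA, HOMER, FastQC, Trim Galore and CASAVA are listed without roles or versions, per the submitters' processing notes. All 12 columns were matched to groups by their names.

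The results come from the 4 virgin columns. The Ezh2 KO and control columns of p13 and p18 were used for single genes. They were also used for counts among the genes past the threshold in both virgin pairs. A limma fit had been planned in case replicate columns existed, and it could not be made with pooled columns. Differences used a pseudocount of 1 FPKM, genes with at least 1 FPKM in either group and a threshold of 1 log2 unit. The 46 gene lists, the members and the threshold were chosen with earlier results of these data known. Genes were named by rule: Ezh2 and Ezh1, the 15 largest differences each way among protein-coding genes with at least 5 FPKM, up to 4 members per list, and the 10 largest each way in both virgin pairs. Genes beyond this rule were named after their values were seen, and 1 gene that the rule takes is not reported here. Protein-coding status came from RefSeq on GRCm38.p6, where 20004 symbols matched directly, 2339 through a synonym and 209 not at all. Because the table uses mm9, coordinates are given only for RefSeq promoters, on their own build. Alternatives were pseudocounts of 0.1 and 5, no filter, a minimum of 5 FPKM, scaling to a common sum, upper quartile or median, protein-coding genes alone and 3 settings added after the data were seen. Scripts ran in Python 3.11.15 with pandas 2.3.3, NumPy 2.4.6 and matplotlib 3.10.9 and were tested on simulated data.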

Additional observations from a re-analysis of the deposited data

Results flagged for a closer look

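Some values stood out because they pointed one way in the untreated pair and the other way, each by at least 1 log2 unit, in the prolactin pair. The difference between the pairs was not tested, since each group has a single pooled value. The following are differences of log2(FPKM + 1), Ezh2 KO minus control. The T and NK cell list had a median of 3.012 in untreated glands and -2.696 after prolactin. The B and plasma cell list had 3.074 and -2.884, and the lymph node stroma and homing list 2.322 and -2.524, where the untreated value is 1.12 with all members in the table included.

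Glycam1 had the widest gap, with 5.66 untreated and -8.12 after prolactin. Among B cell genes, Cd79a had 4.55 and -5.20, Cd79b 3.81 and -4.99, Ms4a1, the CD20 gene, 3.87 and -4.02, and Pou2af1, a B cell coactivator gene, 3.48 and -3.16. Faim3, a receptor gene of lymphocytes, had 4.10 and -4.26. Among T cell genes, Cd8b1 had 3.78 and -3.52, Lef1 1.96 and -2.22 and Tcf7 3.36, with a prolactin value of the opposite sign. Among genes of lymphocyte traffic, Ccr7 had 3.76 and -4.09, and Ltb, the lymphotoxin beta gene, 3.66 and -3.48. The chemokine genes Ccl22 and Ccl5 had 4.00 and -3.47, and 3.92 and -3.36. Marco had 3.09 and -2.71, and Ciita 1.43 and -1.31. Each was high in untreated Ezh2 KO and in prolactin-treated control glands, in which the summed B and plasma cell genes reached 263 and 230 FPKM, against 16.2 FPKM in prolactin-treated Ezh2 KO and 24.7 in untreated control glands.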

How the results depend on the processing

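No paired analysis was possible because the deposited columns pool the libraries of a group and carry no replicate numbers, and for the same reason no library could be left out. The 478 higher genes became 726 with a pseudocount of 0.1, 166 with 5, 281 with a minimum of 5 FPKM and 144 with a threshold of 2. The 130 lower genes became 65 with a pseudocount of 5 and 35 with a threshold of 2. Averaging the untreated and prolactin columns, a setting chosen after seeing the data, left 108 higher genes and turned Glycam1 to -0.24 (-0.237), from 5.66. The other 15 counts stayed within 1.5 times of these. Of the differences followed (37 genes), 210 kept their direction and side of the threshold and 10 kept only the direction. Ezh2 changed sign below the threshold, from 0.13 to -0.17 with the columns averaged. Of the list medians (46 lists), 370 kept both, 15 kept only the direction, and 31 changed sign at values of at most 0.302 in size, 22 of them in settings other than averaging. With a pseudocount of 5 the milk protein median was 0.54, the brown fat median 0.645 and the proliferation median 0.396, while with the columns averaged the T and NK, B and lymph node medians were 0.512, 0.266 and 0.025. Scaling moved the median of all genes by -0.058 to 0.082. The cause of these shifts was not tested. Depth is unknown, so the precision of low values cannot be stated.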
